A study of Mus musculus with 13 samples.

Results

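The Ly6 family of small surface proteins was followed through 5 genes, Ly6d, Ly6a, Ly6c1, Ly6c2 and Ly6e, of the 23785 Entrez genes listed in the count tables of a mouse liver study. The members were found by matching the Entrez identifiers of the rows to mouse symbols, and all 5 had a row in each of the 3 tables. They had been picked with their fold changes in these same comparisons known. Their levels, log2 fold changes and standard errors (SE) are therefore given as a description, with no p-value. For members a p-value is printed only for correlations between pairs of them.

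The mice were male C57 animals, wild-type for Gnmt, 3 months old. Bile duct ligation (BDL), a surgical closure of the bile duct that causes cholestasis, was done in 8 of 13 mice. Of these, 4 received a control inhibitor (miR-Ctrl BDL) and 4 received a hairpin inhibitor of the microRNA miR-873-5p (anti-miR-873-5p BDL), given at 60 µg per mouse 3 and 5 days after the operation, with liver collection at day 7. The remaining 5 mice had no ligation (no BDL), and the labels state neither a sham operation nor an injection in them, so ligation, surgery and injection cannot be told apart in a comparison with this group. RNA was from whole liver, in which more cells of a type and more RNA per cell cannot be told apart. The numbers of the mice count animals within a group.

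Ly6 proteins are short, cysteine-rich proteins with a fold shared with the urokinase receptor, and most are held on the outer face of the cell membrane by a lipid (GPI) anchor. Many are used as surface markers of blood cells. Ly6a encodes the stem cell antigen Sca-1, Ly6c1 and Ly6c2 encode the Ly6C antigens by which inflammatory monocytes are sorted, Ly6e encodes an interferon-inducible protein widely expressed outside the blood, and Ly6d is known from lymphoid progenitors and from stratified epithelia. Ly6a and the Ly6c genes are also expressed by endothelial cells, and Ly6a is a known interferon-inducible gene.

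All 5 genes lie on mouse chromosome 15, within 350 kb (GRCm38, 74762056 to 75112066), a stretch with 13 protein-coding genes. Ly6d is at 74762056 to 74763567, Ly6a at 74994877 to 74998031, Ly6c1 at 75044018 to 75048920 and Ly6c2 at 75108161 to 75112066, all on the minus strand, and Ly6e is at 74955025 to 74959904 on the plus strand. These are the positions of the RefSeq gene models. Reads were 50 bases long, and of the 50-base windows of the GENCODE M21 transcripts of Ly6d and Ly6e 0% occurred in a transcript of another gene. That share was 19.0% for Ly6a, 32.8% for Ly6c1 and 31.2% for Ly6c2, so how the authors' counting divided reads between Ly6c1, Ly6c2 and Ly6a is uncertain, and the levels of these 3 genes are less separate than those of Ly6d and Ly6e.

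The coding sequences of Ly6c1 and Ly6c2 are 396 bases each and differ at 9 bases (97.7% identity), with a longest identical run of 188 bases. Over the whole transcripts, 21.5% of the read-length windows of Ly6c1 occurred in Ly6c2 and 30.8% of those of Ly6c2 in Ly6c1. Few bases differ within the coding sequence, and the 30 coding bases (bases 7 to 36) in which the pair differ most are shown. Capitals mark the bases that differ. They are exonic and lie on chromosome 15 at 75048476 to 75048505 and at 75111632 to 75111661 (GRCm38, minus strand, GENCODE M21 transcripts).
Ly6c1: aCtTctcacActacaaagtcctgtGtgctC
Ly6c2: aGtActcacGctacaaagtcctgtTtgctG
Ly6a was 82.0% identical to Ly6c1 over the coding sequence. Ly6d was 49.4% identical to Ly6a and 51.3% to Ly6e, so the members fall into Ly6a with the Ly6c pair on one side and Ly6d and Ly6e as separate sequences on the other.

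The microRNA that the treatment inhibits is shown with its seed (bases 2 to 8) in capitals, from RefSeq (GRCm38.p6, chromosome 4, 36668556 to 36668576, minus strand).
mmu-miR-873a-5p: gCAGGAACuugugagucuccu
The match to the whole seed, GTTCCTG, was not in the longest annotated 3′ UTR of any of the 5 members, which are 300 bases long in Ly6d, 385 in Ly6a, 389 in Ly6c1, 382 in Ly6c2 and 1192 in Ly6e. It was in 3.6% of the 1267 genes with 300 to 400 bases of 3′ UTR and in 12.1% of the 2326 genes with 1000 to 1400. The shorter match to bases 2 to 7, TTCCTG, occurred once each in Ly6a, Ly6c1 and Ly6c2 and at 2 places in Ly6e, and 0 times in Ly6d. Of all genes in those length ranges, 20.2% and 53.0% held it. These places are shown with the match in capitals and 10 bases on each side.
Ly6a, bases 55 to 60 of the 3′ UTR: gcaacaattcTTCCTGgagccctcta
Ly6c1, bases 56 to 61: caaccactctTTCCTGgagtcctcta
Ly6c2, bases 56 to 61: caaccactctTTCCTGgagtcctcta
Ly6e, bases 574 to 579: ccacactggcTTCCTGctgctattct
Ly6e, bases 618 to 623: ttcacaccctTTCCTGctatgtcctg
The place in Ly6c1 and that in Ly6c2 have the same 26 bases. A match of letters is a description and does not show a site in use.

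The total count over genes was 12185333 to 19689037 reads in a mouse. The 8 hepatocyte genes examined, among them Alb (albumin), Apoa1 and Ttr, were present in all 13 mice, at a summed level of 37359 to 85303 normalized counts after BDL and 92775 to 110905 without it. A normalized count is a gene's reads divided by the library total scaled with edgeR's TMM factor (CPM). Values set beside a fold change are scaled within the table of that comparison, so the same mouse has another value in another table. Mouse 3 of miR-Ctrl BDL and mouse 2 of anti-miR-873-5p BDL are not in the table of the 2 BDL groups, which the authors labelled as without outliers. The study's methods mention a filter for outliers without naming a mouse. Comparisons with no BDL include both mice, and values without them are given for the members and where they move a count by over 1.5 times or change the call of a named gene.

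Levels per kilobase used the joined exons of all protein-coding GENCODE M21 transcripts of a gene, such as 1677 bases for Ly6c1 and 868 for Ly6c2. The order of close members depends on this length. By normalized count alone Ly6c1 lay above Ly6c2 after BDL, at 5.67 against 4.69 (miR-Ctrl) and 2.90 against 2.59 (anti-miR-873-5p). Without BDL Ly6c1 then lay above Ly6d, at 1.11 against 0.973. Per kilobase, Ly6e was the highest member in each group over the 13 mice on a common scale. Its mean was 146 ± 84.6 normalized counts per kb without BDL (SD, n = 5), 488 ± 90.3 in miR-Ctrl BDL (n = 4) and 349 ± 116 in anti-miR-873-5p BDL (n = 4). Ly6d was the lowest but for Ly6c1 without BDL, at 1.31 ± 0.675, and the second highest after BDL, at 188 ± 134 and 92.5 ± 26.9. In the 5 mice without BDL the order by mean was Ly6e, Ly6a (6.31 ± 2.59), Ly6c2 (2.25 ± 0.695), Ly6d and Ly6c1 (0.663 ± 0.284). In that group Ly6a and Ly6c2 did not overlap, at 3.90 to 10.6 and 1.57 to 3.21, while Ly6c2 overlapped Ly6d, at 0.355 to 1.93, and Ly6d overlapped Ly6c1, at 0.317 to 0.944. In miR-Ctrl BDL the order was Ly6e, Ly6d, Ly6a (26.6 ± 26.8), Ly6c2 (5.40 ± 3.82) and Ly6c1 (3.38 ± 3.12), and Ly6a, Ly6c2 and Ly6c1 overlapped. Ly6e and Ly6d did not overlap there, but only just, at 389 and above against 381 and below, and Ly6d did not overlap Ly6a, at 63.4 and below. In anti-miR-873-5p BDL the order was the same, with Ly6a at 14.5 ± 9.63, Ly6c2 at 2.98 ± 1.43 and Ly6c1 at 1.73 ± 0.873, and of the neighbours in this order only Ly6c2 and Ly6c1 overlapped.

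The make-up of the family's summed level therefore differed after BDL. Ly6e held 92.6% ± 2.35 of the sum of the 5 members per kb without BDL (n = 5), 69.3% ± 12.9 in miR-Ctrl BDL (n = 4) and 75.1% ± 5.95 in anti-miR-873-5p BDL (n = 4). Ly6d held 0.929% ± 0.612, 25.5% ± 16.1 and 21.0% ± 6.22. In miR-Ctrl mouse 3 the share of Ly6d was 49.1% and that of Ly6e 50.2%. Ly6a held 4.40% without BDL (2.69% to 6.18%) and 3.87% ± 4.06 and 2.89% ± 1.30 after it.

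**Figure D1:**
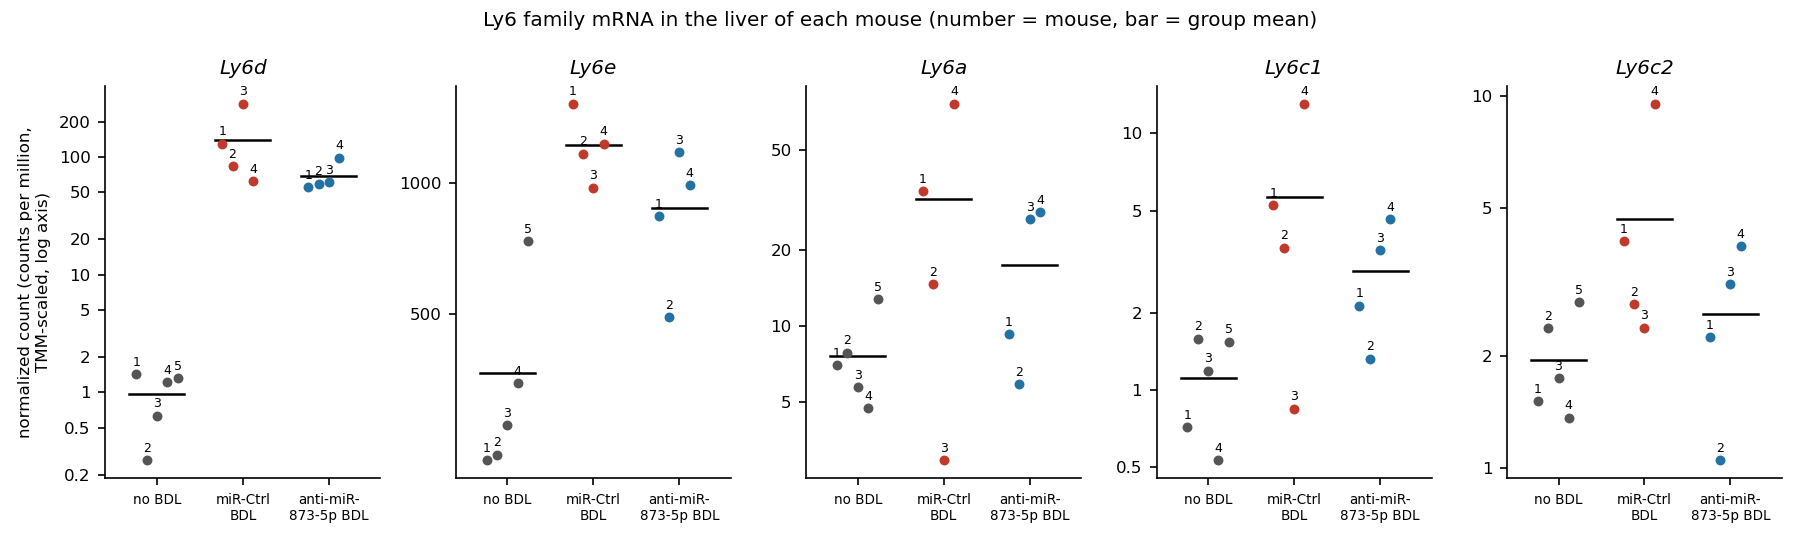
Normalized counts (CPM after TMM scaling of all 13 mice together, log axis) of the 5 members in each mouse, with the mouse number above each point and the group mean as a bar. Ly6d separates both BDL groups, at 55.8 to 283, from no BDL, at 0.264 to 1.43, while Ly6a, Ly6c1 and Ly6c2 overlap between groups, with miR-Ctrl mouse 4 the highest and mouse 3 the lowest of its group in these 3.

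The comparison of miR-Ctrl BDL with no BDL asked what ligation with the control inhibitor did to each gene. Ly6d, a marker of early lymphoid cells and of stratified epithelium, was counted 18, 3, 8, 16 and 18 times in mice 1 to 5 without BDL and 2329, 1526, 3683 and 1125 times in miR-Ctrl mice 1 to 4. Every ligated mouse lay far above every mouse without BDL. The normalized count was 126 ± 87.9 (SD, n = 4) against 0.865 ± 0.445 (n = 5), a log2 fold change of 7.15 (SE 0.57), the seventh largest of 13072 genes tested. Without miR-Ctrl mouse 3, the highest, the log2 fold change was 6.55.

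Ly6e, an interferon-inducible member, had normalized counts of 203, 213, 246, 309 and 658 in mice 1 to 5 without BDL. In miR-Ctrl mice 1 to 4 it had 1392, 1069, 869 and 1111. The groups did not overlap, although mouse 5 without BDL lay nearer to the ligated mice than to the rest of its group. The means were 1110.3 ± 216 and 326 ± 190.0, and the log2 fold change was 1.77 (SE 0.35). Without mouse 5 of the no BDL group it was 2.19, and without miR-Ctrl mouse 3 it was 1.86.

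Ly6a, the Sca-1 gene, had normalized counts of 6.19, 7.04, 5.06, 4.198 and 11.4 in the mice without BDL and of 31.3, 13.5, 2.598 and 68.9 in miR-Ctrl mice 1 to 4. miR-Ctrl mice 1, 2 and 4 lay above the no BDL group and mouse 3 lay below all of it. The log2 fold change was 2.10 (SE 0.70), or 1.22 without miR-Ctrl mouse 4 and 2.47 without mouse 3.

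Ly6c1, which encodes a Ly6C antigen, had 0.633, 1.42, 1.05, 0.474 and 1.38 normalized counts without BDL and 4.78, 3.28, 0.752 and 11.7 in miR-Ctrl mice 1 to 4. Its near copy Ly6c2 had 1.34, 2.13, 1.55, 1.22 and 2.49 without BDL and 3.71, 2.52, 2.12 and 8.59 in miR-Ctrl mice. Both genes overlapped between groups and were highest in miR-Ctrl mouse 4. The log2 fold changes were 2.38 (SE 0.65) for Ly6c1 and 1.28 (SE 0.42) for Ly6c2. Without miR-Ctrl mouse 4 they were 1.57 and 0.67, and without mouse 3 they were 2.72 and 1.49.

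All 5 members were past an adjusted p of 0.05 in the quasi-likelihood test of edgeR (Benjamini-Hochberg adjusted), where 35.7% of 13072 genes were past it, 19.1% higher and 16.6% lower. Of the 5, 2 (Ly6d and Ly6e) were higher without overlap of the groups, as were 14.8% of all genes. Nothing is read from these counts, since the members were chosen from the same comparison. The count past the threshold was 2, namely Ly6d and Ly6e, without miR-Ctrl mouse 4, and 3, with Ly6c1, without miR-Ctrl mouse 1 or when any 1 of mice 1 to 4 of the no BDL group was left out. Without miR-Ctrl mouse 3 it was 5. Scaling by library size alone moved the median over all genes from -0.01 to 0.79 and those of the members upward with it, and the directions given for other genes against no BDL are relative to that shift.

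The comparison of mice given anti-miR-873-5p with no BDL used the same 5 mice without BDL, so it is not independent of the one above and its values are set beside it only as values. Ly6d had 51.9, 53.8, 57.5 and 91.8 normalized counts in anti-miR-873-5p mice 1 to 4 against 0.242 to 1.29 without BDL. As with the control inhibitor, no ligated mouse came near the no BDL range. The log2 fold change was 6.14 (SE 0.35), the eleventh largest of 13130 genes. Ly6e had 781, 445, 1103 and 921 against 207 to 671, with mouse 2 inside the no BDL range, and a log2 fold change of 1.29 (SE 0.39).

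Ly6a had 8.62, 5.30, 24.9 and 26.4 normalized counts in anti-miR-873-5p mice 1 to 4 against 4.28 to 11.6 without BDL. Mice 3 and 4 lay above the no BDL group and mice 1 and 2 within it. The log2 fold change was 1.24 (SE 0.47). Ly6c1 had 1.98, 1.199, 3.28 and 4.31 against 0.483 to 1.45, a log2 fold change of 1.42 (SE 0.43). Ly6c2 had 2.09, 0.947, 2.92 and 3.68 against 1.24 to 2.54, a log2 fold change of 0.45 (SE 0.37). Mouse 2 was the lowest ligated mouse for Ly6a, Ly6c1, Ly6c2 and Ly6e, but not for Ly6d. Without it the log2 fold changes were 6.198 for Ly6d, 1.48 for Ly6e, 1.52 for Ly6a, 1.65 for Ly6c1 and 0.69 for Ly6c2.

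Of the 5 members, 3 (Ly6d, Ly6e and Ly6c1) were past the threshold in this comparison, where 21.5% of 13130 genes were, and 1 (Ly6d) was higher without overlap of the groups, as were 10.1% of all genes. The count was 4, with Ly6a, without anti-miR-873-5p mouse 2. It was 2, Ly6d and Ly6c1, without anti-miR-873-5p mouse 1, and 1, Ly6d, without anti-miR-873-5p mouse 3 or 4 or when any 1 of mice 1 to 4 of the no BDL group was left out. Scaling by library size alone moved the median of all genes from -0.01 to 0.82 and put all 5 members past the threshold.

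The comparison of the 2 inhibitors asked what inhibition of miR-873-5p changed in ligated livers, with mice 1, 2 and 4 given the control and mice 1, 3 and 4 given anti-miR-873-5p. All 5 members had a lower mean with anti-miR-873-5p, and in all 5 the mice of the groups overlapped. Ly6d had 73.4, 80.4 and 129 normalized counts with anti-miR-873-5p against 171, 110.3 and 81.1 with the control, a log2 fold change of -0.36 (SE 0.32). Ly6e had 1106, 1542 and 1291 against 2011, 1534 and 1603, a log2 fold change of -0.39 (SE 0.20). For Ly6e a single pair of mice overlapped, mouse 3 of the first group and mouse 2 of the second.

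Ly6a had 12.2, 34.8 and 37.0 normalized counts with anti-miR-873-5p against 45.3, 19.3 and 99.4 with the control, a log2 fold change of -0.96 (SE 0.62). Ly6c1 had 2.81, 4.58 and 6.04 against 6.91, 4.70 and 16.9, a log2 fold change of -1.08 (SE 0.51). Ly6c2 had 2.96, 4.07 and 5.15 against 5.36, 3.61 and 12.4, a log2 fold change of -0.80 (SE 0.46). These 3 differences rested largely on miR-Ctrl mouse 4, the highest for each. Without it they were -0.20, -0.37 and -0.14.

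In edgeR's quasi-likelihood test 0 of 13746 genes were past the threshold, 863 (6.28%) had an unadjusted p under 0.05, and DESeq2 called 31 genes, none of them a member. No member had an unadjusted p under 0.05. A log2 fold change below 0 was found for 48.8% of all genes tested. With all 4 mice of both groups in the fit, the log2 fold change of Ly6d was -1.02, where miR-Ctrl mouse 3, with the highest Ly6d of all mice, is included, and 28 genes but no member were past the threshold. In leave-one-out fits Ly6d ran from -0.65 to -0.02 and Ly6e from -0.52 to -0.26.

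**Figure D2:**
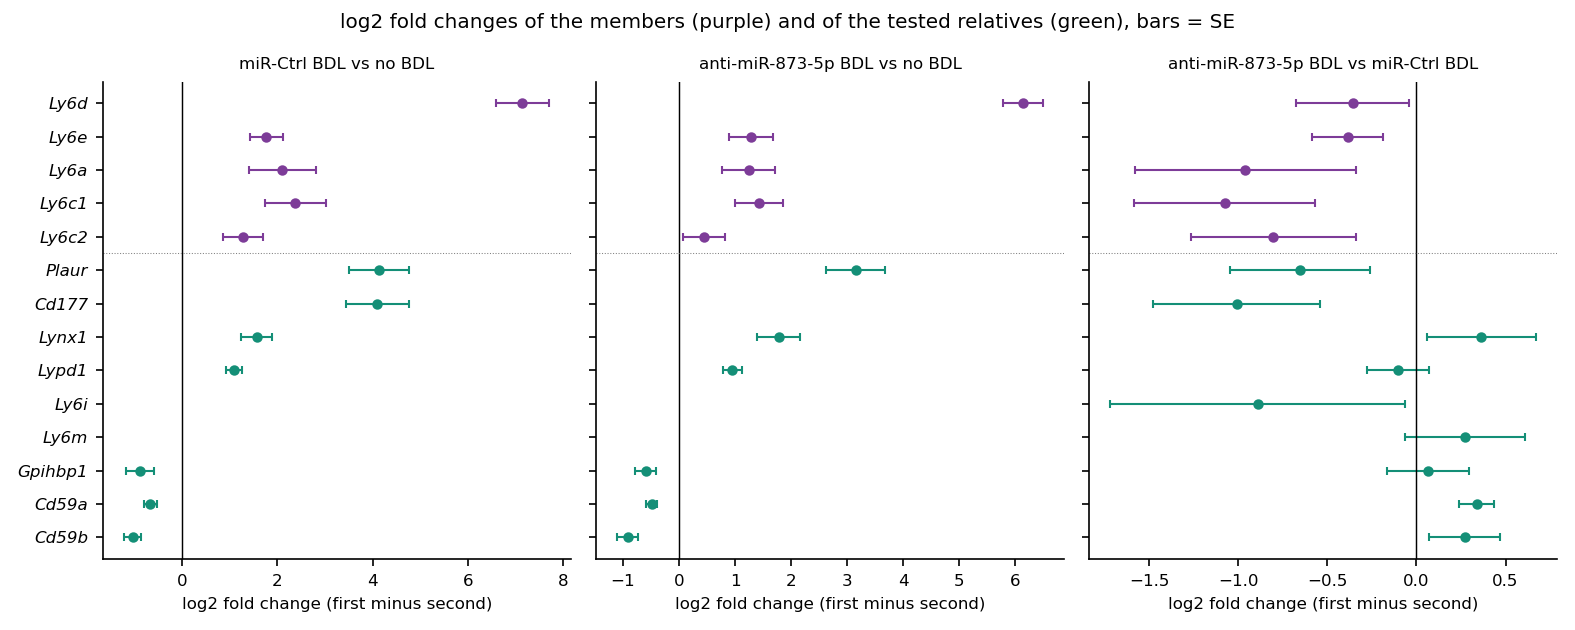
log2 fold changes (points) with SE (bars) of the 5 members and of the relatives that passed the filter on low counts, in the 3 comparisons (TMM scaling, horizontal axes of different range). Ly6d, at 7.15 and 6.14, stands to the right of all other genes shown against no BDL. The lower values of Cd59a, Cd59b and Gpihbp1 hold under TMM scaling, and with library size alone Cd59a in both comparisons, and Gpihbp1 in the one with the inhibitor of miR-873-5p, lie above 0.

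Members differed in how they varied among the ligated mice. Over the 8 mice with BDL, on log2 normalized counts, Ly6a and Ly6c1 had Pearson's r = 0.972 (exact permutation p = 4.96e-05, adjusted over 10 pairs 0.000496) and Spearman's rho = 0.976 (p = 0.000397, adjusted 0.00397). Without the 2 mice farthest from the median of Ly6a, miR-Ctrl mice 3 and 4, r was 0.957, and without the pair of mice that the table of the BDL groups lacks it was 0.945. Ly6c1 and Ly6c2 had r = 0.911 (exact permutation p = 0.00303, adjusted 0.0151) and rho = 0.905 (p = 0.00456, adjusted 0.0114), and Ly6a and Ly6c2 had r = 0.851 (exact permutation p = 0.00615, adjusted 0.0205) and rho = 0.929 (p = 0.00223, adjusted 0.0112). Without the 2 farthest mice these values of r were 0.974 and 0.950. The share of sequence that these 3 genes have in common was given above, and its part in the correlations was not tested.

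For Ly6d no relation with the other members passed the test. With Ly6a it had r = -0.395 (exact permutation p = 0.342, adjusted 0.483) and rho = 0.119 (p = 0.793, adjusted 0.793), with Ly6c1 r = -0.351, with Ly6c2 r = -0.0368 and with Ly6e r = 0.268, and the lowest adjusted p of r for a pair with Ly6d was 0.483 in the exact permutation test. Without miR-Ctrl mice 1 and 3, the farthest from the median of Ly6d, r with Ly6a was 0.220, and without the pair that the table of the BDL groups lacks it was 0.174. These values pool the 2 groups, in which the mice did not fall alike. The r of Ly6d with Ly6a was -0.857 within miR-Ctrl BDL and 0.650 within anti-miR-873-5p BDL. In miR-Ctrl BDL the mouse with the most Ly6d had the least Ly6a, while in anti-miR-873-5p BDL mouse 4 had the most of both, at 98.6 and 28.3 normalized counts on the common scale. Ly6e followed Ly6a, Ly6c1 and Ly6c2 by rank more than by r. Its r with Ly6a was 0.630 (exact permutation p = 0.0882, adjusted 0.176) and its rho 0.833 (p = 0.0154, adjusted 0.0307), and without miR-Ctrl mice 3 and 4 the r was 0.870. Without the pair that the table of the BDL groups lacks it was 0.612, and r of Ly6c2 with Ly6e went from 0.723 to 0.432.

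Single mice differed widely in the ratio of the members. miR-Ctrl mouse 3 had the most Ly6d of all 13 mice, at 283 normalized counts on the common scale, and the least Ly6a, at 2.92, so that Ly6d had 96.9 times the reads of Ly6a. In miR-Ctrl mouse 4, with the most Ly6a at 76.4, that ratio was 0.816. In anti-miR-873-5p BDL it was 2.31 to 10.1. Without BDL it lay between 0.0337 and 0.258. The reads of Ly6c1 were 0.553 ± 0.125 times those of Ly6c2 without BDL (n = 5), 1.08 ± 0.483 in miR-Ctrl BDL (n = 4) and 1.13 ± 0.133 in anti-miR-873-5p BDL (n = 4). The range was 0.389 to 0.682 without BDL, 0.355 to 1.37 in miR-Ctrl BDL, which overlapped it, and 0.949 to 1.27 in anti-miR-873-5p BDL, which did not.

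**Figure D3:**
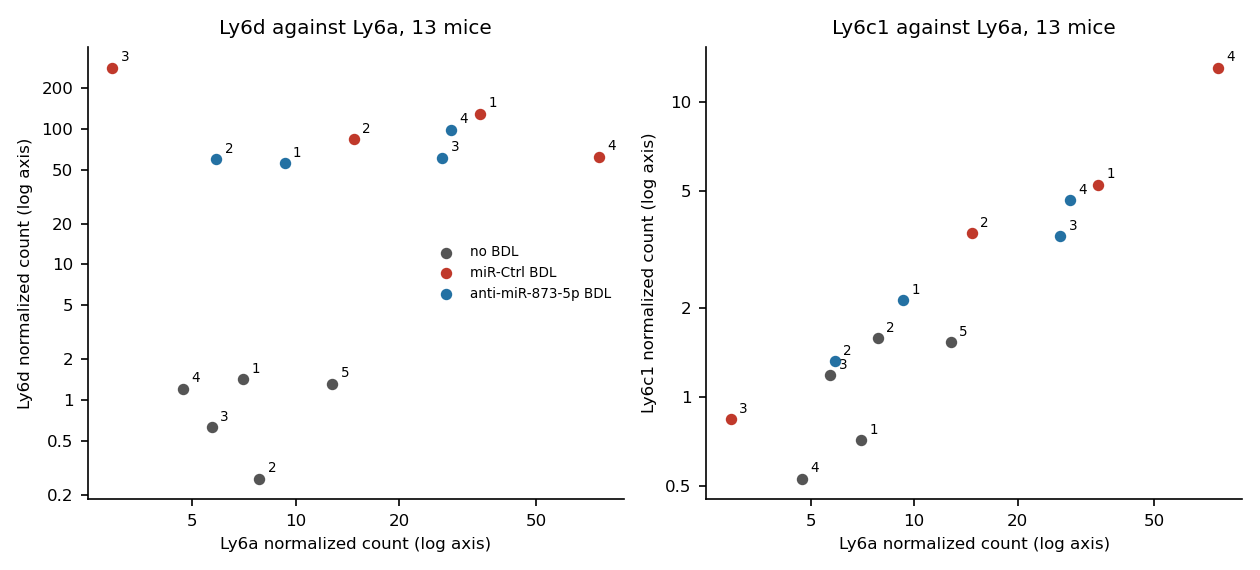
Normalized counts of Ly6d (left) and Ly6c1 (right) against Ly6a in each of the 13 mice on a common scale (both axes log), with the mouse number beside each point. Among ligated mice Ly6c1 goes with Ly6a from miR-Ctrl mouse 3, at 2.92 Ly6a and 0.846 Ly6c1, to mouse 4, at 76.4 and 13.03, while Ly6d is 283 in mouse 3 and 62.4 in mouse 4.

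The genes whose level was most like that of each member over the 13 mice are given as a description, by Pearson's r of log2 normalized counts over at least 12638 genes. With 5 mice lacking BDL among the 13, the split between ligated and other mice enters each of these values. For Ly6d they were S100a11, a calcium-binding protein gene (r = 0.991), Cd63, a tetraspanin (r = 0.985), and Plp2 (r = 0.981). For Ly6a they were Phf11b (r = 0.977), Phf11d (r = 0.959) and Ifi208 (r = 0.955), for Ly6c1 the chemokine genes Ccl24 (r = 0.975) and Cxcl10 (r = 0.957) and Phf11a (r = 0.9485), for Ly6c2 Med21 (r = 0.944), the granzyme gene Gzmb (r = 0.9385) and Tgtp2 (r = 0.9265), and for Ly6e Ier5 (r = 0.980), Map1s (r = 0.9745) and Tmem176a (r = 0.972). Over the 8 ligated mice alone, 0 of these 3 genes were again the closest 3 for Ly6d and for Ly6e, 1 for Ly6a (Phf11b), 2 for Ly6c1 (Ccl24 and Phf11a) and 1 for Ly6c2 (Gzmb).

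Of the 39 other genes of the Ly6 and urokinase receptor superfamily that were listed, 35 had a row, and Ly6g, Ly6g2, Ly6l and Lypd8l were not analysed here. In miR-Ctrl BDL against no BDL 7 relatives passed the filter on low counts, and 10 had 0 reads in all 9 mice, among them Ly6h, Lypd2, Lypd8 and Slurp2. Of the 35, these 7 were past the threshold in the edgeR quasi-likelihood test, 4 higher and 3 lower. Genes such as Plaur and Cd177 passed the filter only through the ligated mice. The count over tested relatives is therefore not read against the share of all genes. Ly6i also passed the filter, and was past the threshold and higher, without miR-Ctrl mouse 3 or 2.

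Plaur, the urokinase receptor gene, rose from 1 to 13 reads per mouse without BDL to 62 to 225 with ligation and the control inhibitor. Its log2 fold change was 4.14 (SE 0.63), or 3.41 without miR-Ctrl mouse 3. No p-value is given for it, since it passed the filter only through the ligated mice. Cd177, a neutrophil surface antigen gene, had 0 to 2 reads per mouse without BDL and 14 to 42 in miR-Ctrl BDL, too few in the first group for a fold change to be given. Lynx1 and Lypd1, whose products act on nicotinic acetylcholine receptors, rose with log2 fold changes of 1.56 (SE 0.32, adjusted p = 0.00491) and 1.10 (SE 0.17, adjusted p = 0.00114). For all 4 genes every miR-Ctrl mouse lay above every mouse without BDL, as it did for 14.8% of all genes.

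Cd59a and Cd59b, which encode inhibitors of complement lysis, and Gpihbp1, which carries lipoprotein lipase in capillaries, were lower after ligation under TMM scaling, while with library size alone Cd59a had a log2 fold change of 0.11. Cd59a fell from 43.7 ± 3.497 normalized counts (n = 5) to 27.4 ± 5.73 (n = 4), a log2 fold change of -0.67 (SE 0.14, adjusted p = 0.00438 in the edgeR test). Cd59b had -1.04 (SE 0.18, adjusted p = 0.00199) and Gpihbp1 -0.89 (SE 0.30, adjusted p = 0.0436). The groups did not overlap for Cd59a and Cd59b, as for 14.8% of all genes in that direction, nor did they with anti-miR-873-5p, as for 8.23%. With library size alone Cd59b and Gpihbp1 had -0.24 and -0.06, and none of the 3 was past the threshold. Gpihbp1, whose groups overlapped, was also not past it without mouse 1, 2, 3 or 5 of the no BDL group or without miR-Ctrl mouse 1 or 4.

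With anti-miR-873-5p, 6 of the 35 relatives passed the filter in the comparison with no BDL and were past the threshold, 3 higher and 3 lower. The same limit holds for this count, and over all genes tested 13.1% of all genes were higher and 8.44% lower. Plaur, which passed the filter through the ligated mice, had a log2 fold change of 3.16 (SE 0.53). Lynx1 had 1.78 and Lypd1 0.95, and Cd59b had -0.92, Gpihbp1 -0.60 and Cd59a -0.49. With library size alone Cd59a was at 0.33 and Gpihbp1 at 0.24. Gpihbp1 was not past the threshold without mouse 1, 2, 3 or 5 of the no BDL group or without anti-miR-873-5p mouse 1, 2 or 3. Without anti-miR-873-5p mouse 2, Ly6i passed the filter and was past the threshold and higher. Cd177 did not pass the filter, with 1 to 14 reads in anti-miR-873-5p mice.

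Between the inhibitors 9 relatives passed the filter and 0 were past the threshold in edgeR or in DESeq2. Cd59a alone had an unadjusted p under 0.05. It was at 44.9 ± 3.37 normalized counts with anti-miR-873-5p and 35.5 ± 2.36 with the control, without overlap, as were 6.59% of all genes in that direction (log2 fold change 0.34, SE 0.10, adjusted p = 0.757 in the edgeR test). Cd177 was lower without overlap, as were 4.77% of all genes (log2 fold change -1.01, SE 0.47, adjusted p = 0.781 in the edgeR test). Ly6i, 86.4% identical to Ly6a over the coding bases and sharing 4.76% of its 50-base windows with other genes, had 104 reads in miR-Ctrl mouse 4 and 4 to 32 in the other miR-Ctrl mice, and its log2 fold change was -0.89 (SE 0.83, adjusted p = 0.87 in the edgeR test). It was thus highest in the mouse with the most Ly6a and Ly6c1.

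Gene lists of the response and of cell types that express Ly6 genes were measured beside the members. They hold none of the 5 members. Interferon response genes, a program that Ly6a and Ly6e are known to belong to, all had a log2 fold change above 0 in miR-Ctrl BDL against no BDL (30 of 30 tested, median 1.14 against -0.01 for all genes), and 7 were past the threshold, all higher, a share near the 19.1% of all genes. The count rested on single mice. It was 25 without miR-Ctrl mouse 3, where 22.2% of all genes were higher, 10 without mouse 5 of the no BDL group, 2 without miR-Ctrl mouse 1 or 4 or mouse 1 or 4 of the no BDL group, 3 without mouse 2 and 4 without mouse 3 of that group. Among the most abundant were Bst2 (log2 fold change 0.53, adjusted p = 0.435 in the edgeR test) and Irf7 (1.56, adjusted p = 0.0537), neither of which passed. Without miR-Ctrl mouse 3 both did, at 0.86 (adjusted p = 0.03 in the edgeR test) and 1.91 (adjusted p = 0.00184). By mouse, on the common scale, the summed level of the list was 1685, 727, 311 and 1894 in miR-Ctrl mice 1 to 4 and 501 to 896 without BDL. Mouse 3 was the lowest miR-Ctrl mouse and mouse 4 the highest, as they were for Ly6a and Ly6c1.

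In anti-miR-873-5p mice 1 to 4 the interferon list summed to 752, 295, 984 and 886, again lowest in the mouse lowest for Ly6a, Ly6c1, Ly6c2 and Ly6e, mouse 2. Against no BDL 4 of 30 genes were past the threshold, all higher (median log2 fold change 0.50), near the 13.1% of all genes. The count was 14 without mouse 2, where 18.4% of all genes were higher, and 1 or 2 without mouse 3 or 4 or any 1 of mice 1 to 4 of the no BDL group. Against miR-Ctrl BDL all 30 had a log2 fold change below 0 (median -0.76 against 0.01 for all genes), and 0 were past the threshold in edgeR or DESeq2, with 2, Bst2 and Irf7, at an unadjusted p under 0.05. Bst2 had -0.77 (SE 0.32) and Irf7 -0.85 (SE 0.35), both with an adjusted p = 0.775 in the edgeR test. The part of this list in the levels of the members was not tested.

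Monocyte genes rose together with ligation. In miR-Ctrl BDL 14 of 14 were past the threshold and higher (median log2 fold change 3.10), against 19.1% of all genes. Their sum was 365 to 1151 normalized counts against 50.3 to 227 without BDL. Lyz2, the lysozyme of macrophages, had a log2 fold change of 2.11 (SE 0.51, adjusted p = 0.00979 in the edgeR test) and Cd14, the lipopolysaccharide co-receptor, 6.33 (SE 1.03, adjusted p = 0.00155). Without miR-Ctrl mouse 3 the value of Cd14 was 4.73 (SE 0.62) and 14 of 14 were still past the threshold. Mice given anti-miR-873-5p had 12 of 13 past the threshold and higher (median 2.36), against 13.1% of all genes. The order of the miR-Ctrl mice by this sum, with mouse 3 highest at 1294 and mouse 1 lowest at 399 on the common scale, was not that of Ly6c1 or Ly6c2. The sum weighs abundant genes most, and Cd14 was at 281 ± 376 normalized counts in miR-Ctrl BDL (SD, n = 4). The order therefore need not hold for the other monocyte genes. Between the inhibitors 0 of 14 were past the threshold in edgeR or DESeq2, 0 had an unadjusted p under 0.05, and the median log2 fold change was -0.40.

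Neutrophil genes, of which Cd177 is also a relative above, were few in reads without BDL. Of 14 with a row, 7 passed the filter in miR-Ctrl BDL against no BDL and 5 in the comparison with anti-miR-873-5p. Some of them passed only through the ligated mice. In the edgeR test 6 and 4 were past the threshold and higher, as were 19.1% and 13.1% of all genes. Because of that filter the counts are not read against these shares. The second edgeR count was 0 without anti-miR-873-5p mouse 4 or any 1 of mice 1 to 4 of the no BDL group, 1 without anti-miR-873-5p mouse 3 and 6 without mouse 1. DESeq2, run without that filter, called 13 and 8 genes of the list. S100a8 and S100a9, the calprotectin genes, had log2 fold changes of 5.01 and 5.02 in miR-Ctrl BDL, or 3.58 and 3.75 without miR-Ctrl mouse 3. The sum over all 14 genes did not overlap between groups, at 8.62 to 22.97 normalized counts without BDL on the common scale and 23.3 and above in each ligated mouse. The summed level was 268 in miR-Ctrl mouse 3 and 27.2 to 81.0 in the other miR-Ctrl mice, on the common scale, so the mouse with the most Ly6d also had the most of these transcripts. The part of neutrophils in Ly6d was not tested. Anti-miR-873-5p mouse 4, the highest of its group for Ly6d, had 85.5 against 23.3 to 33.8 in the rest of its group.

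Cholangiocyte genes, which mark the bile duct epithelium, were past the threshold and higher in 12 of 13 tested in both comparisons with no BDL (median log2 fold change 2.38 in miR-Ctrl BDL and 2.80 in anti-miR-873-5p BDL). Of all genes, 19.1% and 13.1% were. Spp1 (osteopontin) had 3.77 (SE 0.46, adjusted p = 0.000411 in the edgeR test) in miR-Ctrl BDL. By mouse the sum was 1268, 1751, 573 and 1192 in miR-Ctrl mice 1 to 4, lowest in the mouse with the most Ly6d. In anti-miR-873-5p mouse 2, with 59.5 Ly6d against 55.8 and 61.5 in mice 1 and 3, the sum was 340.5 against 1259 to 1705 in the others. Spp1 alone was at 899 ± 440 normalized counts in miR-Ctrl BDL and 906 ± 521 in anti-miR-873-5p BDL (SD, n = 4 each). These sums therefore weigh 1 gene most, and the part of cholangiocytes in Ly6d was not tested.

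Genes of the lymphoid cells and epithelia in which Ly6d is known were also measured. Of 9 B cell genes with a row, 2 passed the filter in miR-Ctrl BDL against no BDL and 0 were past the threshold in edgeR, with 1, Cd79b, at an unadjusted p under 0.05 and 1 called by DESeq2. When any 1 miR-Ctrl mouse was left out, 1 was lower and past the threshold in edgeR. Their sum was 1.98 to 5.44 normalized counts in miR-Ctrl BDL and 4.87 to 7.80 without BDL. The 4 plasmacytoid dendritic cell genes summed to at most 0.999 normalized counts in miR-Ctrl BDL and 1.66 in anti-miR-873-5p BDL, against at most 0.914 and 0.931 without BDL in the same tables.

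Of 13 stratified epithelium genes, 4 had 0 reads in all 9 mice of the comparison of miR-Ctrl BDL with no BDL (Krt13, Krt6a, Sprr1b and Dsc3), and 1 passed the filter. That gene, Sprr1a, a cornified envelope precursor gene, was at 10.01 ± 7.79 normalized counts in miR-Ctrl BDL (n = 4) and at 4.08 ± 2.39 in anti-miR-873-5p BDL (n = 4), with 0 reads in all 5 mice without BDL. Krt14, a basal keratin gene, had 1.23 ± 1.28 in miR-Ctrl BDL and 0 reads without BDL and did not pass the filter. All 13 genes together summed to 5.85 to 21.5 normalized counts in miR-Ctrl BDL and 0.542 to 1.12 without BDL, in livers in which Ly6d was at 56.2 to 252. The sum was highest in miR-Ctrl mouse 2 (23.5 on the common scale) and not in mouse 3 (10.8). The groups did not overlap in this sum, which weighs Sprr1a most and need not hold for the other genes of the list. The part of these cells in Ly6d was not tested.

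Endothelial genes, markers of another cell type that expresses Ly6a and the Ly6c genes, were past the threshold and higher in 1 of 19 and lower in 2 of 19 in miR-Ctrl BDL (median log2 fold change -0.54), and higher in 1 and lower in 4 of 19 in anti-miR-873-5p BDL (median -0.48). Of all genes, 19.1% were higher and 16.6% lower in the first comparison, and 13.1% and 8.44% in the second. The counts of lower genes were 0 without miR-Ctrl mouse 1 or 4 or mouse 1, 2, 3 or 5 of the no BDL group, and 1 without mouse 4 of that group, in the first comparison. In the second they were 1 without anti-miR-873-5p mouse 3 and 2 without any 1 of mice 1 to 4 of the no BDL group. Plvap, Stab1 and Eng, the most abundant, had 0.30, 0.17 and -0.41 in miR-Ctrl BDL and were not past the threshold (adjusted p = 0.423, 0.599 and 0.228 in the edgeR test). Of the T cell genes 0 of 5 were past the threshold and higher in miR-Ctrl BDL and 1, Cd4, was lower, and without miR-Ctrl mouse 3 Thy1 was past it and higher. With anti-miR-873-5p 0 of 4 tested passed in edgeR, with 2, Cd4 and Thy1, at an unadjusted p under 0.05 and 1 called by DESeq2, and without mouse 2 Thy1 was past the threshold and higher. Hepatocyte genes were past the threshold and lower in 5 of 8 in miR-Ctrl BDL, against 16.6% of all genes. In anti-miR-873-5p BDL 2 of 8 were (4 without mouse 2), against 8.44% of all genes. Among them was Ttr, with -2.14 (SE 0.22, adjusted p = 0.000212) and -1.67 (SE 0.30, adjusted p = 0.00571) in the edgeR test.

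**Figure D4:**
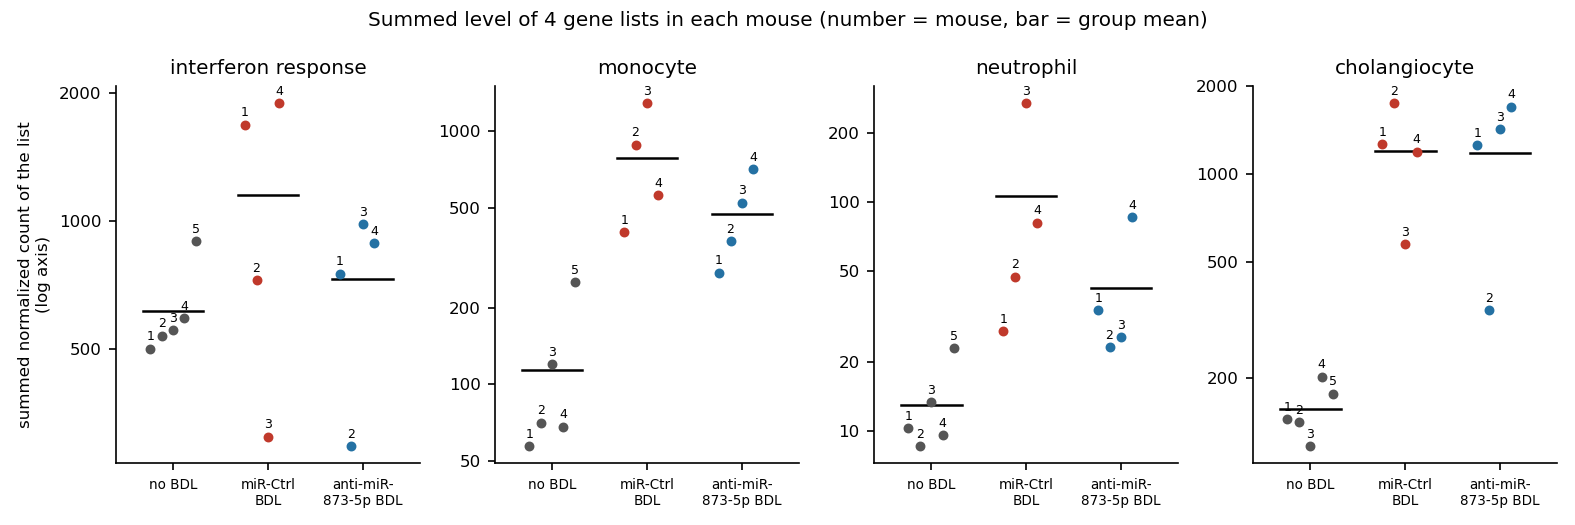
Summed normalized counts (log axis, 13 mice on a common scale) of the interferon response, monocyte, neutrophil and cholangiocyte genes in each mouse, with the mouse number above each point and the group mean as a bar. miR-Ctrl mouse 3 is the lowest of its group for interferon response (311) and cholangiocyte genes (573) and the highest for monocyte (1294) and neutrophil genes (268). The sums weigh abundant genes most, such as Cd14 and Spp1 in miR-Ctrl BDL.

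Ly6c1 and Ly6c2 each had 2 promoter sequences around the transcription start in the RefSeq table used (GRCm38). None held GAAA followed by any 2 bases and GAAA, a core of the interferon-stimulated response element, on either strand, while 3.44% of 32851 promoters of that length did. The absence of these letters from this window says nothing of the factors that bind there.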

How the data were processed

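Liver RNA of 13 mice was sequenced with a TruSeq RNA v2 kit, which does not mark strand, as single reads of 50 nt. Per the submitters' processing notes, CASAVA 1.8.2, FastQC, Trim Galore and TopHat were used with mm10. The program and annotation used for counting are not given in the sources used here. The authors deposited 3 tables of whole-number read counts per Entrez gene, 1 for each comparison, and no further normalization was applied to them. The tables hold 23079, 23725 and 23725 genes, and 0 columns of values were left unused. Total counts were 12185333 to 19689037 per mouse, and no pair of mice of a group agreed within sampling noise.

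Counts were tested with edgeR 4.0.16 (R 4.3.3) by the quasi-likelihood test after filterByExpr and TMM scaling, with Benjamini-Hochberg adjustment over all genes tested and a threshold of 0.05. Standard errors were taken from the log2 fold change and its F statistic. DESeq2 1.42.0, other scalings and filters, a fit of all groups, a replicate block and leave-one-out fits were the alternatives. The script was tested on simulated data. p-values measure the spread between these mice. Members and gene lists were chosen with earlier results of these data known. Named genes were the members, every relative that passed the filter, the 3 most abundant genes of each list and the 3 genes with the highest Pearson's r to each member, on log2(normalized count + 1) with genes under a mean of 10 counts left out. The inhibited microRNA itself was not analysed here. Some genes that this rule names are not reported here.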

Additional observations from a re-analysis of the deposited data

Results flagged for a closer look

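In 41 groups of 4 or 5 mice (members and relatives, normalized counts on the scale of all 13 mice), 3 held a mouse far from the rest by Dixon's test, which chance alone gives in about 1 group in 20. Ly6d was 98.6 in anti-miR-873-5p mouse 4 and 61.5 in the next highest mouse of that group. Ly6e was 736 in mouse 5 without BDL and 346 in the next highest, and that mouse also had the highest Ly6a and Ly6c2 and the highest interferon response and monocyte sums of its group. Cd177 was 3.23 in miR-Ctrl mouse 3 and 1.11 in the next highest, and that mouse had the highest neutrophil sum.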

How the results depend on the processing

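With library size alone, 9635 genes and 4 relatives passed in the comparison of miR-Ctrl BDL with no BDL, and 10194 genes, 5 members and 3 relatives in that of anti-miR-873-5p with no BDL. That scaling leaves in the shift of all genes given with the results. Between the inhibitors, DESeq2 called 31 genes and the fit of all mice of both BDL groups 28, with 0 members and 0 relatives in either, and the cause was not tested. Leaving out 1 mouse gave 3775 to 5710, 1261 to 4317 and 0 to 1 genes in the 3 comparisons, 2 to 5, 1 to 4 and 0 members, and 6 to 8, 5 to 6 and 0 relatives. Each member kept the sign of its log2 fold change in every alternative that could be fitted. Ly6a and Cd59a were not fitted with all 3 groups together, since their counts differ between tables. With DESeq2's size factors in edgeR, Gpihbp1 was not past it in the second comparison (adjusted p = 0.0517). Genes of a few reads per mouse, such as Ly6c1 and Ly6c2 without BDL, are limited by depth.

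The mouse numbers count animals within a group and pair no animals. Same-numbered mice correlated at -0.089 to 0.036 (miR-Ctrl BDL and no BDL), -0.198 to 0.074 (anti-miR-873-5p BDL and no BDL) and 0.349 and -0.016 (mice 1 and 4 of the BDL groups). No ligated mouse correlated best with its own number in the no BDL group. Between the BDL groups, anti-miR-873-5p mouse 1 did so and mouse 4 did not. With the number as a replicate block, 2, 2 and 0 members were past the threshold in the 3 comparisons, Ly6d and Ly6e in the first 2, with 4063 and 2195 genes in those 2.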
